A study of Homo sapiens with 3 samples.

Results

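Nuclear hormone receptors are transcription factors that bind DNA and, for many of them, are switched by small lipid-soluble ligands such as steroids, retinoids, thyroid hormone, vitamin D and fatty acid or sterol derivatives. The set described here holds 46 genes of this superfamily, chosen by gene symbol alone and not by their values, out of 62754 genes measured. All 46 were found in the deposited table through GENCODE release 44, and they fall into 21 subfamilies of closely related genes. RNA was measured in 3 replicates of MCF10A cells, an immortalized human line of breast epithelium that forms no tumors, at 27 h after seeding. All replicates carried an empty vector of a doxycycline-inducible retroviral system, had been selected with puromycin, contained no added gene, received no doxycycline and belong to 1 batch. There is thus 1 condition of 1 cell line, no group was compared with another, and nothing in the labels says that the replicates came from separate cultures. The growth medium contained a mammary epithelial supplement kit, of which hydrocortisone, a ligand of the glucocorticoid receptor, is a usual component. That is background knowledge, since the sources used here do not list what the kit contains, and all replicates had the same medium.

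Most receptors of the superfamily act in pairs or on paired DNA sites. Steroid receptors bind DNA mainly as pairs of the same protein, after release from a complex of heat shock chaperones. The receptors for retinoic acid, thyroid hormone, vitamin D, fatty acids and oxysterols pair with a retinoid X receptor. Receptors without ligand recruit corepressors at many genes, and ligand exchanges these for coactivators. Orphan receptors are those for which no hormone was known when they were found. In the breast, estrogen and progesterone receptors mark hormone-sensing luminal cells, while basal cells largely lack them.

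Values are given in TPM, a unit that corrects read numbers for transcript length and for the total of the library, so that levels of different genes can be set side by side. Reads were recovered from TPM and length as whole numbers, 15273329, 15446347 and 11166546 in replicates 1, 2 and 3, of which 15621, 16055 and 10801 were on the receptor genes. For a receptor of the median length of 4625 bases, 1 TPM was worth 24.4, 25.1 and 20.7 reads. Replicate 3 stood apart, since the short non-coding RNAs RN7SL1 and RMRP took 17.1% of its TPM, against 5.44% and 6.32% in replicates 1 and 2, and its values for other genes were lower. The mean chi-square per gene between replicates was 6.5, 23.0 and 23.1 for the 3 pairs, where counting error alone gives about 1, so that the libraries differed from each other and each was counted as 1 replicate. Basal epithelial markers were present in full (6 of 6 at or above 1 TPM, summed TPM from 12104 to 15575, led by KRT5). Of the luminal markers, 3 of 6 were at or above 1 TPM (481.7 to 576.9 in sum), with ELF5 and KIT at 0 reads and KRT19 at a mean of 0.0457 TPM. The 3 were KRT18, KRT8 and EPCAM, at means of 412.6, 117.8 and 14.6 TPM. Among hormone-sensing luminal markers, 4 of 6 were at or above 1 TPM by the mean (1643 to 1887 in sum, nearly all from AREG). GATA3 was at 14.9, 12.9 and 10.4 TPM, FOXA1 at 1.19, 0.790 and 1.34 TPM and AGR2 at 1.69, 0.874 and 0.528 TPM. PRLR was at a mean of 0.0301 TPM, and TFF3 had 0 reads. Markers of other cell types reached 1 TPM for 2 of 5 fibroblast genes (13.4 to 14.3 in sum, highest DCN, with COL1A2, PDGFRA and LUM at 0 reads), 1 of 4 endothelial genes (1.77 to 2.16, highest PECAM1, with CDH5 at 0 reads), 1 of 4 hepatocyte genes (63.1 to 77.6, highest SERPINA1, with ALB and TTR at 0 reads), 0 of 4 leukocyte genes (0.0621 to 0.286, highest PTPRC, with CD3E at 0 reads) and 0 of 4 adipocyte genes (0.153 to 0.617, highest PLIN1, with ADIPOQ and LEP at 0 reads).

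By the mean of the replicates, 22 of the 46 receptor genes (47.8%) were at or above 1 TPM, the cutoff of the study's methods, against 56.7% of all 20046 protein-coding genes. All 22 were at or above it in each replicate. A further 7 receptors lay between 0.2 and 1 TPM, 9 were above 0 but below 0.2 TPM, and 8 had 0 reads in every replicate. Over all protein-coding genes, 26.2% had 0 reads. The median mean level was 0.977 TPM over the 46 receptors and 3.75 TPM over all protein-coding genes. Levels were concentrated in few genes. The 6 highest, VDR, RXRA, ESRRA, NR3C1, NR2F6 and RARG, held 65.5%, 63.6% and 66.2% of the summed receptor TPM in replicates 1, 2 and 3, and the 24 receptors below 1 TPM together held 0.699% ± 0.0541 (SD, n = 3). Even the highest receptor was not among the most abundant messages of the cell, as 9.15% of protein-coding genes were at or above the mean of VDR.

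**Figure D1:**
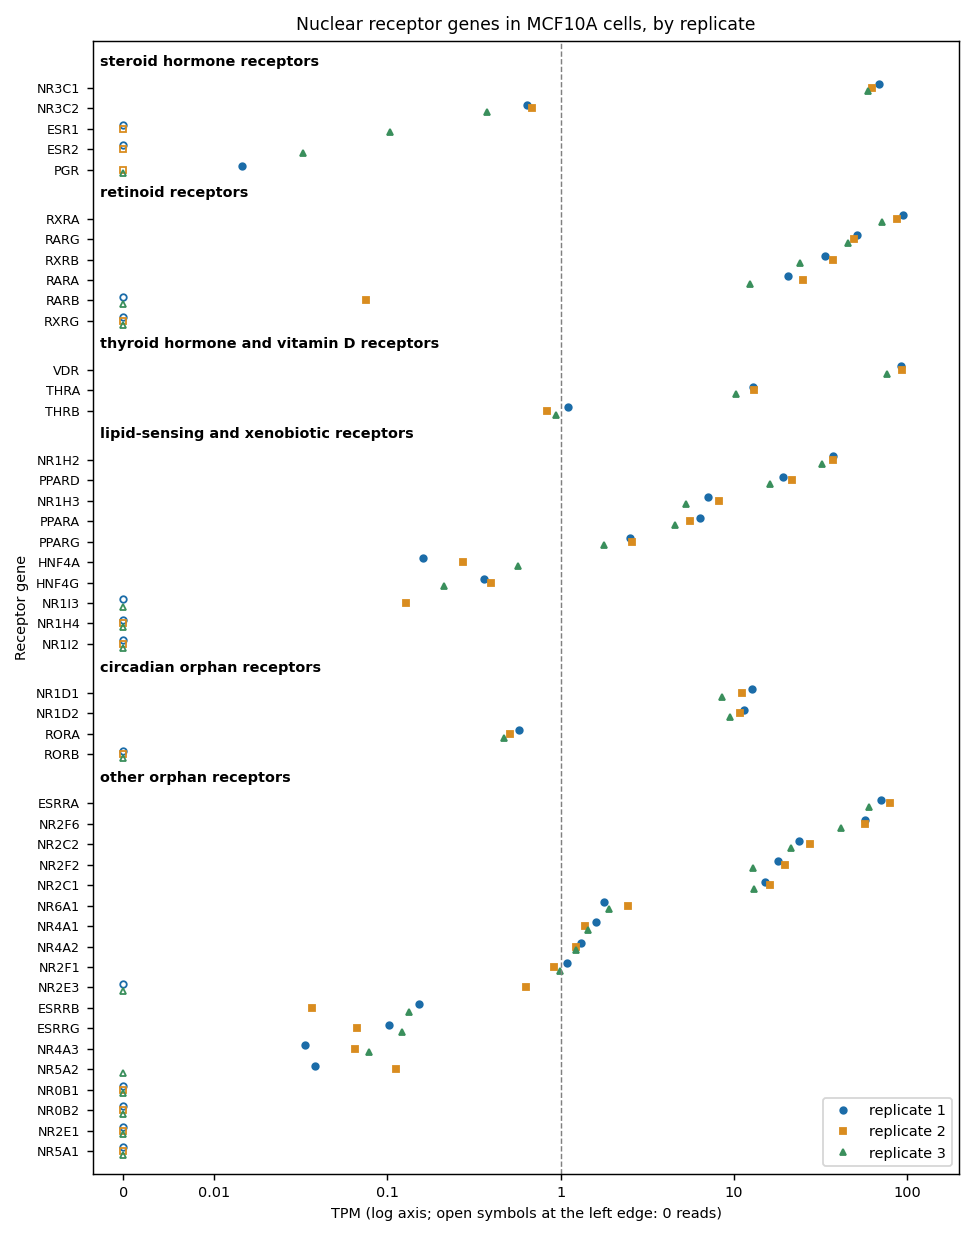
TPM of the 46 receptor genes on a log axis, with 1 symbol per replicate (circle, replicate 1; square, replicate 2; triangle, replicate 3), genes grouped by ligand class and ordered by mean within a group. Open symbols at the left edge are values of 0 reads and the dashed line is 1 TPM. VDR, RXRA, ESRRA, NR3C1 and NR2F6 lie at means of 51.9 to 87.5 TPM, while ESR1, ESR2 and PGR lie at or below 0.104 TPM in every replicate.

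Among the 5 steroid hormone receptors, only NR3C1 reached 1 TPM. NR3C1 (ENSG00000113580, chromosome 5 of hg38 from 143277931 to 143435512, minus strand) encodes the glucocorticoid receptor and was measured at 69.0, 62.6 and 59.1 TPM in replicates 1, 2 and 3, a mean of 63.5 ± 5.02 TPM (SD, n = 3). It held 99.1% ± 0.231 (SD, n = 3) of the TPM summed over itself, NR3C2 and PGR. NR3C2, the mineralocorticoid receptor, which also binds cortisol, was at 0.643, 0.688 and 0.378 TPM from 20, 22 and 10 reads. The level of NR3C1 was thus high and that of NR3C2 low in every replicate, with no overlap.
ESR1, the estrogen receptor alpha, had 0, 0 and 3 reads, which gives 0.104 TPM in replicate 3. ESR2, estrogen receptor beta, had 0, 0 and 1 reads, and PGR, the progesterone receptor and itself a target of estrogen receptor alpha, had 1, 0 and 0 reads. At these depths 3 reads of PGR would correspond to at most 0.0513 TPM in any replicate, 3 reads of ESR1 to 0.104 TPM and 3 reads of ESR2 to 0.0979 TPM. The limit of 3 reads is meant for replicates with 0 reads and covers counting error only. ESR1 was at its limit in replicate 3, so that the limit is no upper bound for ESR1 there.

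The genes around the glucocorticoid receptor were read from lists of partners and targets. None of the 8 listed glucocorticoid targets fell below 1 TPM in any replicate, with a median of 45.1 TPM. FKBP5, a chaperone that binds the receptor and is also one of its best known target genes, was the highest at 259, 256 and 216 TPM. DUSP1, PER1, ERRFI1, TSC22D3, SGK1 and ZBTB16 had means between 21.0 and 195.7 TPM, and KLF9 was the lowest at 2.99, 1.95 and 1.80 TPM. These genes also answer to other signals, and no replicates with and without a glucocorticoid were compared, so that the part of the receptor in their levels was not tested. All 11 listed chaperones of steroid receptors were at or above 1 TPM, from BAG1 at 60.2 TPM to HSPA8 at 4641 TPM. HSD11B1, which makes cortisol from cortisone, had 0, 0 and 2 reads. HSD11B2, which runs the opposite reaction, was at 3.31, 3.12 and 3.42 TPM, above HSD11B1 in every replicate.
Of the 14 genes for handling steroid hormones, 8 were at or above 1 TPM. HSD17B1, which makes estradiol from estrone, was at 26.9, 36.5 and 29.7 TPM, with 70.7% of its canonical transcript covered by exons on the opposite strand. HSD17B4, an enzyme of peroxisomes that also oxidizes estradiol, was at 34.8, 30.1 and 28.1 TPM, which gives both genes nearly the same mean, and with canonical lengths HSD17B4 was the higher at 115.2 against 25.3 TPM. CYP11A1 and CYP17A1, early enzymes of steroid synthesis, had 0 reads in each replicate. SULT1E1, which inactivates estrogens by sulfation, was on both sides of 1 TPM at 2.69, 1.36 and 0.632 TPM, and a neighbouring gene on its strand covers 28.4% of its canonical transcript. Of the 8 listed estrogen receptor targets, 4 were at or above 1 TPM, namely XBP1 (124.6 TPM), CA12 (82.9 TPM), SIAH2 (49.4 TPM) and IGFBP4 (6.35 TPM). The other listed targets were low: PGR as given, TFF1 with 0 reads, PDZK1 at a mean of 0.425 TPM and GREB1 on both sides of the cutoff at 0.757, 1.17 and 0.785 TPM.

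**Figure D2:**
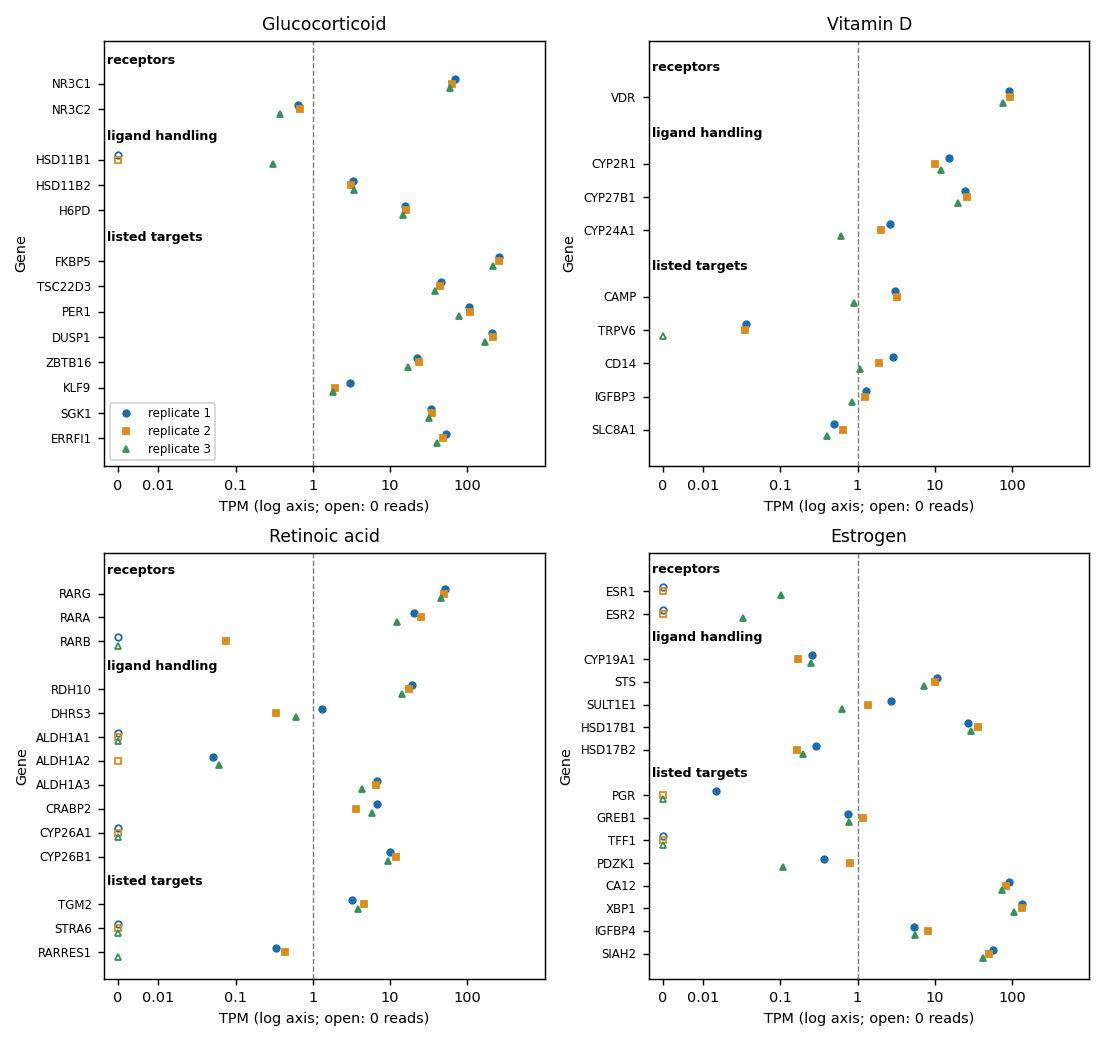
TPM on a log axis for receptors, ligand-handling genes and listed target genes of 4 hormone classes, with 1 symbol per replicate, open symbols for 0 reads and a dashed line at 1 TPM. All 8 glucocorticoid targets lie to the right of 1 TPM, whereas CYP24A1, CAMP and IGFBP3 of the vitamin D panel have replicate 3 to the left of it.

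For vitamin D, the receptor was high and its listed targets were low. VDR (ENSG00000111424, chromosome 12 from 47841537 to 47943048, minus strand) had the highest mean of all receptors, with 92.2, 93.5 and 76.8 TPM (87.5 ± 9.31 TPM; SD, n = 3). Of the 6 genes for handling vitamin D, 3 were at or above 1 TPM by the mean. CYP27B1, which makes the active hormone, was the highest at 24.4, 26.05 and 19.98 TPM. CYP2R1, which makes its precursor, was at 15.2, 10.02 and 12.01 TPM. LRP2, an uptake receptor, had 0 reads in each replicate. CYP24A1 breaks the hormone down and is also the best known target of VDR. It was measured at 2.61, 2.03 and 0.615 TPM, on both sides of the cutoff. Of the 6 listed VDR targets, 4 were at or above 1 TPM by the mean but 1 (CD14) in every replicate, and the highest was CAMP at 3.07, 3.24 and 0.903 TPM from 28 reads in all. IGFBP3 was at 1.30, 1.27 and 0.849 TPM. The summed TPM of the 6 targets was 10.4, 9.13 and 3.85, lowest in replicate 3.

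Of the thyroid hormone receptors, THRA held 92.6% ± 1.26 (SD, n = 3) of the TPM of both genes. THRA was measured at 12.9, 13.0 and 10.3 TPM (12.1 ± 1.52 TPM; SD, n = 3) and THRB at 1.104, 0.830 and 0.943 TPM (0.959 ± 0.138 TPM; SD, n = 3). THRB was thus at or above 1 TPM in replicate 1 only, from 44, 34 and 32 reads. Among the genes for handling this hormone, DIO1 and DIO3, enzymes that remove iodine from the hormone, had 0 reads, and DIO2, the enzyme that activates it within cells, had 3 reads in all replicates together.
THRA lies on the plus strand of chromosome 17 from 40058290 to 40093867, and NR1D1, a receptor of the circadian clock, on the minus strand from 40092793 to 40100589. Their ends overlap. In the canonical transcripts, 210 bases of THRA and 473 bases of NR1D1 (17.98% of it) are covered by exons of the other gene. Whether reads were counted by strand is not stated, and without strand the reads of this stretch cannot be told apart.

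Of the retinoid receptors, 4 of 6 were at or above 1 TPM, and in each subfamily 1 gene was at or near 0. The retinoic acid receptors RARG, RARA and RARB bind all-trans retinoic acid, and the retinoid X receptors RXRA, RXRB and RXRG are the shared partners of many receptors. To show the genes in their reference context, promoter windows are printed 5′ to 3′ on the strand of the gene, from 250 bases before to 50 bases after the start annotated by RefSeq on GRCh38.p14. The first shown are those of the 3 retinoic acid receptors. Capitals mark the hexamer AGGTCA, the basic unit of many receptor binding sites, in RARA (chr17:40308930-40309229, plus strand), the direct repeat of GGTTCA and AGTTCA, 5 bases apart, in RARB (chr3:25428013-25428312, plus strand) and each CpG in RARG (chr12:53232160-53232459, minus strand).
RARA: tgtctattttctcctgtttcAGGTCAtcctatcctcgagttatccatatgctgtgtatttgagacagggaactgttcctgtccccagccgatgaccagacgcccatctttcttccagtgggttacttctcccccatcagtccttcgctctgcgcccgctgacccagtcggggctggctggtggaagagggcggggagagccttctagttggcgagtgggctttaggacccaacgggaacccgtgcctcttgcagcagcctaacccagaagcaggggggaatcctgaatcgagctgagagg
RARB: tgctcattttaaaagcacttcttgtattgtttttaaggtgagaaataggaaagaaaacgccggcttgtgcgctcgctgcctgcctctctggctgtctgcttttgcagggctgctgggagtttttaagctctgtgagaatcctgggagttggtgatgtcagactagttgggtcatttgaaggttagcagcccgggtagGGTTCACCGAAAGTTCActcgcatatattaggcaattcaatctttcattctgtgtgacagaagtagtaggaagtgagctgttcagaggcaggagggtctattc
RARG: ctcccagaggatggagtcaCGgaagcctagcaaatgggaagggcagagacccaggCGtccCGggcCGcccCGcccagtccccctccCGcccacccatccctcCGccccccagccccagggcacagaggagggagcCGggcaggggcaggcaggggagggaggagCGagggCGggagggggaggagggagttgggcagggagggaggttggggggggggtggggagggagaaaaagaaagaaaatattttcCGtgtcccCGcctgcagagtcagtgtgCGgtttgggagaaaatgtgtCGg
The RARB window holds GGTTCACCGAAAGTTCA from base 198 to base 214 of its 300 bases. This direct repeat is known as the retinoic acid response element of the gene, through which retinoic acid receptors raise RARB. The letters GGTTCA, any 5 bases and AGTTCA were taken from this element, so that a match in RARB was fixed in advance. Searched on both strands, they were found in 1 of 15345 protein-coding promoters (0.00652%), that of RARB. Looser forms of the repeat were not searched, so this count does not show how common such elements are.
RARG was measured at 51.3, 49.3 and 45.6 TPM (48.8 ± 2.87 TPM; SD, n = 3), with the replicates closer together than for most receptors. RARA was at 20.5, 24.9 and 12.4 TPM (19.3 ± 6.34 TPM; SD, n = 3), 2.01-fold between the highest and the lowest replicate. RARB had 0, 2 and 0 reads, which gives 0.0754 TPM in replicate 2. RARG was above RARA and RARA above RARB in every replicate. The share of RARG in the TPM of the 3 genes was 71.4%, 66.4% and 78.6%.

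Windows of the retinoid X receptors are shown because 1 gene of the highest level and 1 gene with 0 reads both have many CpG, marked in capitals. RXRA (chr9:134326205-134326504, plus strand) holds 65 and RXRG (chr1:165445077-165445376, minus strand) 28.
RXRA: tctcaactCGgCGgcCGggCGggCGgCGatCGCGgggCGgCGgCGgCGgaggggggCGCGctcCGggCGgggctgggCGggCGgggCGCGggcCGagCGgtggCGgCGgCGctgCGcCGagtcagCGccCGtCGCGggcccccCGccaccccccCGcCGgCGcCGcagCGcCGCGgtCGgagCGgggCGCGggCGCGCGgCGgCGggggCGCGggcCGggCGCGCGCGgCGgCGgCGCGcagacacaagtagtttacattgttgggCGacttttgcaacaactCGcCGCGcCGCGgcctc
RXRG: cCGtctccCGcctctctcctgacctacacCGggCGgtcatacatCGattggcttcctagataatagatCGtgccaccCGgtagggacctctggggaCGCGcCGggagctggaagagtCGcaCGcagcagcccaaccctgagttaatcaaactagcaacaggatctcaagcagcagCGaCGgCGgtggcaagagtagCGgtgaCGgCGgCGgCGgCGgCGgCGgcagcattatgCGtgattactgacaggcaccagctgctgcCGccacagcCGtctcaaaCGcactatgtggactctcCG
RXRA (ENSG00000186350, chromosome 9 from 134317098 to 134440585) was measured at 94.8, 86.8 and 72.0 TPM (84.6 ± 11.6 TPM; SD, n = 3). RXRB was at 33.3, 37.2 and 24.2 TPM (31.6 ± 6.69 TPM; SD, n = 3), below RXRA in every replicate, and 12.5% of its canonical transcript is covered by exons of SLC39A7 on the opposite strand, which was at 68.9 TPM. No read of RXRG was found in any replicate, and the limit of 3 reads is 0.299 TPM. RXRA thus held 74.0%, 70.0% and 74.8% of the TPM of this subfamily. VDR and RXRA, a receptor and its partner, differed by less than the spread between replicates, with VDR the higher in 2 of 3.

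Genes that make, carry and break down retinoic acid were mixed, with 6 of 16 at or above 1 TPM by the mean. The highest was RDH11, a retinal reductase, at 58.3, 56.5 and 55.5 TPM. RDH10, the main enzyme that makes retinal from retinol, was at 19.0, 17.6 and 14.3 TPM. Of the 3 retinal dehydrogenases that make retinoic acid, ALDH1A3 was at 6.70, 6.52 and 4.39 TPM, ALDH1A1 had 0 reads and ALDH1A2 had 1, 0 and 1 reads. Of the canonical transcript of ALDH1A3, 49.4% is covered by exons on the opposite strand. CYP26B1, which breaks retinoic acid down, was at 9.97, 11.8 and 9.26 TPM, and its relative CYP26A1 had 0 reads, but a neighbouring gene on its strand covers 35.4% of its canonical transcript. STRA6, an uptake receptor, also had 0 reads. DHRS3, a retinal reductase induced by retinoic acid, was on both sides of the cutoff at 1.30, 0.336 and 0.610 TPM, as was the binding protein CRABP1 at 0, 0.251 and 1.52 TPM from 6 reads in all. Of the 8 listed retinoic acid targets, 3 were at or above 1 TPM, with CYP26B1 the highest, followed by CRABP2 at 5.43 TPM and TGM2 at 3.91 TPM. RARB, CYP26A1, DHRS3, STRA6 and RARRES1 were below it.

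Of the 10 lipid-sensing and xenobiotic receptors, 5 were at or above 1 TPM, and these were sensors of fatty acids and oxysterols. NR1H2, the liver X receptor beta, was at 37.1, 37.5 and 32.4 TPM (35.7 ± 2.83 TPM; SD, n = 3). NR1H3, the liver X receptor alpha, was at 7.11, 8.21 and 5.33 TPM (6.88 ± 1.45 TPM; SD, n = 3). Both bind oxysterols, and NR1H2 held 83.9%, 82.1% and 85.9% of their summed TPM.
PPARD was the highest of the fatty acid sensors at 19.3, 21.7 and 16.1 TPM (19.0 ± 2.81 TPM; SD, n = 3). PPARA was at 6.38, 5.59 and 4.54 TPM (5.50 ± 0.921 TPM; SD, n = 3). PPARG, the regulator of fat cell formation, was at 2.52, 2.57 and 1.78 TPM (2.29 ± 0.445 TPM; SD, n = 3). The order PPARD, PPARA, PPARG held in every replicate. The level of PPARG depends on the transcript length used. With the canonical transcript of each gene in place of the longest, PPARG was at 4.76 TPM and PPARA at 4.48 TPM by the mean. This turns the order of the means, but mostly through replicate 2 (5.32 against 4.51 TPM). The 2 genes were nearly equal in replicates 1 (5.21 against 5.16 TPM) and 3 (3.76 TPM for both). The share of PPARD fell from 71.0% to 62.9%.
The other lipid-sensing and xenobiotic receptors, best known from liver, gut and kidney, were low. HNF4A was at 0.160, 0.273 and 0.566 TPM from 4, 7 and 12 reads, and HNF4G at 0.362, 0.396 and 0.213 TPM from 8, 9 and 4 reads. NR1I3, a sensor of foreign compounds, had 0, 1 and 0 reads, and 18.8% of its canonical transcript is covered by TOMM40L on the opposite strand. NR1I2, the other such sensor, and NR1H4, the bile acid receptor, had 0 reads, which allows up to 0.156 and 0.233 TPM.
Of the 8 listed liver X receptor targets, 5 were at or above 1 TPM. SREBF1, the regulator of fatty acid synthesis, was the highest at 83.2, 91.3 and 67.2 TPM, followed by LPCAT3 (32.8 TPM, with 67.4% of its canonical transcript covered on the opposite strand), APOE (9.05 TPM), MYLIP (3.43 TPM) and ABCG1 (3.40 TPM). The sterol exporter ABCA1 was at 0.0183, 0.214 and 0.237 TPM, and ABCG5 and ABCG8 had 0 reads. Among the 8 listed PPAR targets, 3 were at or above 1 TPM, among them ANGPTL4 at 83.7, 101.4 and 81.2 TPM and CPT1A at 69.0 TPM. PLIN2, a lipid droplet coat protein, had 0 reads in each replicate. It lies on chromosome 9 from 19108375 to 19149290, and its canonical transcript shares no base with another annotated gene.

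The circadian receptors fall into repressors and activators of the same DNA sites. The repressors NR1D1 (12.7, 11.1 and 8.59 TPM; mean 10.8 ± 2.06 TPM, SD, n = 3) and NR1D2 (11.4, 10.9 and 9.52 TPM; mean 10.6 ± 0.974 TPM, SD, n = 3) differed by less than the spread between replicates. NR1D1 held 52.6%, 50.5% and 47.4% of their summed TPM, and neither gene was the higher in every replicate. The activator RORA was far lower, at 0.579, 0.512 and 0.474 TPM from 33, 30 and 23 reads, and RORB had 0 reads (up to 0.0699 TPM). Of 15 listed clock partners, 13 were at or above 1 TPM, led by PER1 at 104, 108 and 78.7 TPM. BMAL1, whose gene is a target of both the repressors and the activators, was at 32.9, 33.5 and 28.3 TPM and its partner CLOCK at 34.0, 31.3 and 29.3 TPM. The 2 partners below 1 TPM were DBP (0.715 TPM) and HLF (0.240 TPM).

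Of the other 18 orphan receptors, 8 were at or above 1 TPM. ESRRA, a regulator of mitochondrial genes that binds no known hormone, was the highest at 70.7, 79.9 and 59.9 TPM (70.2 ± 9.99 TPM; SD, n = 3) and held 99.7% ± 0.154 (SD, n = 3) of the TPM of its subfamily, while ESRRB and ESRRG had 8 reads each over all replicates. Of its canonical transcript, 12.5% is covered by exons of TRMT112 on the opposite strand, at 341.2 TPM. PPARGC1A, the coactivator best known to work with ESRRA, was at a mean of 0.0937 TPM from 9 reads, and the related PPARGC1B at 23.6, 27.3 and 19.1 TPM, so that PPARGC1B was the higher in every replicate.
Of the COUP transcription factors, NR2F6 was at 56.9, 57.3 and 41.4 TPM (51.9 ± 9.05 TPM; SD, n = 3), NR2F2 at 17.95, 19.8 and 12.8 TPM (16.9 ± 3.6 TPM; SD, n = 3) and NR2F1 at 1.09, 0.913 and 0.987 TPM (0.996 ± 0.0872 TPM; SD, n = 3). This order held in every replicate. NR2F1 was the member just below the cutoff by the mean, and NR4A2, at 1.25 TPM, the one just above it.
The testicular receptors NR2C2 and NR2C1, which act mostly as repressors, were at 23.8, 27.3 and 21.4 TPM (24.2 ± 2.96 TPM; SD, n = 3) and at 15.2, 16.1 and 13.1 TPM (14.8 ± 1.53 TPM; SD, n = 3). The value of NR2C2 has to be read with its locus, since 83.6% of its canonical transcript is covered by exons of genes on the opposite strand, among them FGD5-AS1 at 71.2 TPM and MRPS25 at 16.9 TPM. NR6A1, the germ cell nuclear factor, was at 1.77, 2.43 and 1.90 TPM (2.03 ± 0.350 TPM; SD, n = 3).
The NR4A receptors are immediate early genes that rise within minutes to hours of many stimuli. NR4A1 was at 1.61, 1.37 and 1.43 TPM and NR4A2 at 1.31, 1.23 and 1.22 TPM, both from low counts (108 and 66 reads in all) and with NR4A1 the higher in every replicate. NR4A3 had 1, 2 and 2 reads. With the canonical length, NR4A1 was at 2.34 TPM and its share of the subfamily was 68.5% in place of 52.8%. Of its canonical transcript, 30.3% is covered by an antisense gene, which had 0 reads.
The remaining orphan receptors are known mainly from the nervous system, retina, adrenal, gonad and liver. NR2E3, the photoreceptor-specific receptor, had 0, 7 and 0 reads (0.628 TPM in replicate 2). NR5A2 had 1, 3 and 0 reads. NR2E1, NR5A1, NR0B1 and NR0B2 had 0 reads, with limits between 0.207 TPM for NR2E1 and 0.575 TPM for NR0B2.

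**Figure D3:**
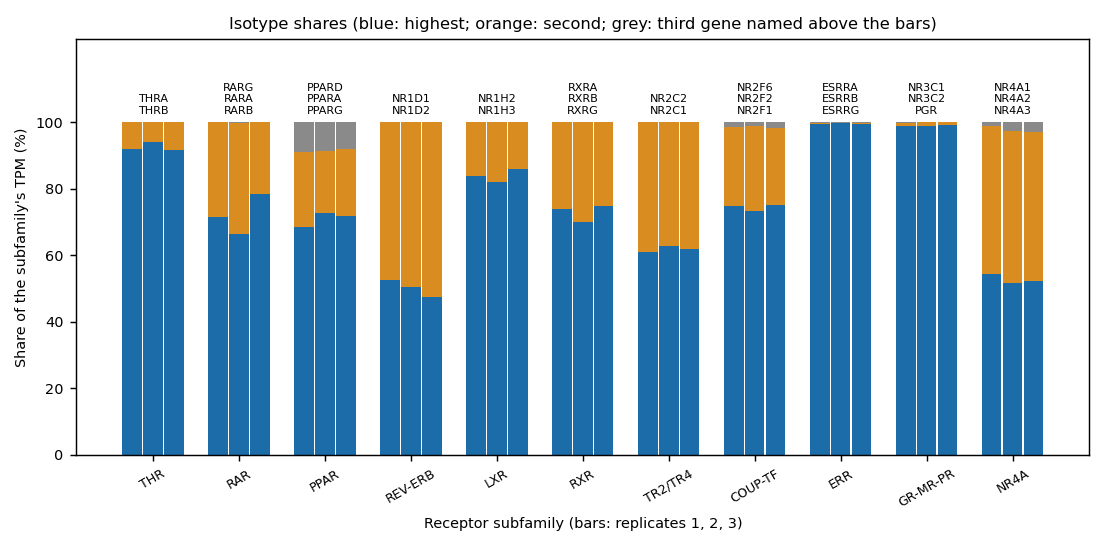
Share of each gene in the summed TPM of its subfamily, in percent, with 3 bars per subfamily for replicates 1, 2 and 3 and the genes named above the bars from the highest (blue) to the lowest (grey). ESRRA and NR3C1 take at least 98.9% of their subfamilies in every replicate, while NR1D1 and NR1D2 divide theirs almost evenly.

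The general machinery was present. Of 12 listed coactivators, 11 were at or above 1 TPM, led by the methyltransferase PRMT1 at 354.5 TPM, and PPARGC1A was the exception. All 8 corepressors were at or above it by the mean, led by the deacetylase HDAC3 at 147.3 TPM, with NCOR1 at 54.6 TPM. GPS2, a part of the same complex, was on both sides of the cutoff at 1.45, 1.5 and 0.793 TPM, and a neighbouring gene on its strand covers 100% of its canonical transcript. Over all 14 lists, 83 of 124 genes that are not receptors (66.9%) were at or above 1 TPM, against 56.7% of protein-coding genes.

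Neighbours in the order of levels did not all differ. Among the 22 receptors at or above 1 TPM there are 21 neighbouring pairs, and 13 of these differed by more than the SD of the difference on the log2(TPM + 1) scale and had the same order in all replicates. The 8 that did not were VDR and RXRA, ESRRA and NR3C1, NR2F6 and RARG, NR1H2 and RXRB, RARA and PPARD, NR2F2 and NR2C1, NR1D1 and NR1D2, and PPARG and NR6A1. The count was 12 with canonical lengths and between 13 and 15 when 1 replicate was left out, alternatives chosen after seeing the data. With canonical lengths NR1H2, at a mean of 43.2 TPM, passed NR2F6 (42.2 TPM) and RARG (39.7 TPM). RARG was then no longer among the 6 highest receptors by the mean. NR1H2 was above NR2F6 in replicate 3 only (39.9 against 34.2 TPM) and below it in replicates 1 and 2. No test of a single pair was run, since with 3 replicates an exact sign-flip test (two-sided) cannot give less than p = 0.25.

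The spread between replicates was set mostly by replicate 3. Among the 22 receptors, the median SD of log2(TPM + 1) was 0.19, against 0.16 over 11360 protein-coding genes at or above 1 TPM, and without replicate 3 it was 0.093. Replicate 3 held the lowest value for 20 of 22, where the background is 78.5% of protein-coding genes. The median difference of replicate 3 from replicate 1 was -0.25 on this scale over the receptors and -0.23 over the protein-coding genes. Each replicate was then scaled by its median ratio over protein-coding genes of at least 10 TPM. This alternative for the spread was chosen after seeing the data. With it, replicate 3 was the lowest for 12 of 22 receptors (54.5%), against 35.0% of the protein-coding genes at or above 1 TPM. The median SD was then 0.10 for both sets.
A chi-square test of the recovered reads asked which genes differed between libraries by more than counting error, with Benjamini-Hochberg adjustment over 15802 genes of at least 15 reads. It compares libraries, not conditions. Under equal TPM, 15 of 28 receptors tested had an adjusted p under 0.05 in the chi-square test. The background is 54.3% of all genes tested. Without replicate 3, 5 receptors did so, a count that has no share over all genes beside it. The mean chi-square per gene was 6.5 for replicates 1 and 2, against 23.1 and 23.0 for the pairs with replicate 3. After scaling by the median ratio 8 receptors were called, with a background of 31.2%. Under equal TPM the smallest adjusted p in the chi-square test was that of RXRA, 2.62e-18, which was 0.00554 after scaling. The 8 were RARA, RXRA, RXRB, NR3C1, ESRRA, NR2C2, NR2F2 and HNF4A. After scaling, RARA had the smallest adjusted p of the receptors in the chi-square test, 1.08e-07, with scaled values of 19.3, 23.7 and 13.9 TPM. In the deposited TPM, before scaling, the SD of log2(TPM + 1) of RARA was above that of 98.9% of expressed protein-coding genes. Scaled values were 31.3, 35.4 and 27.04 TPM for RXRB, 16.9, 18.8 and 14.3 TPM for NR2F2 and 64.7, 59.5 and 65.98 TPM for NR3C1. HNF4A was called on 23 reads in all, at scaled values of 0.151, 0.260 and 0.632 TPM. THRB and NR2F1, the 2 receptors on both sides of 1 TPM (background 2.84% of protein-coding genes), had adjusted p values of 0.53 and 0.88 in the chi-square test under equal TPM.

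**Figure D4:**
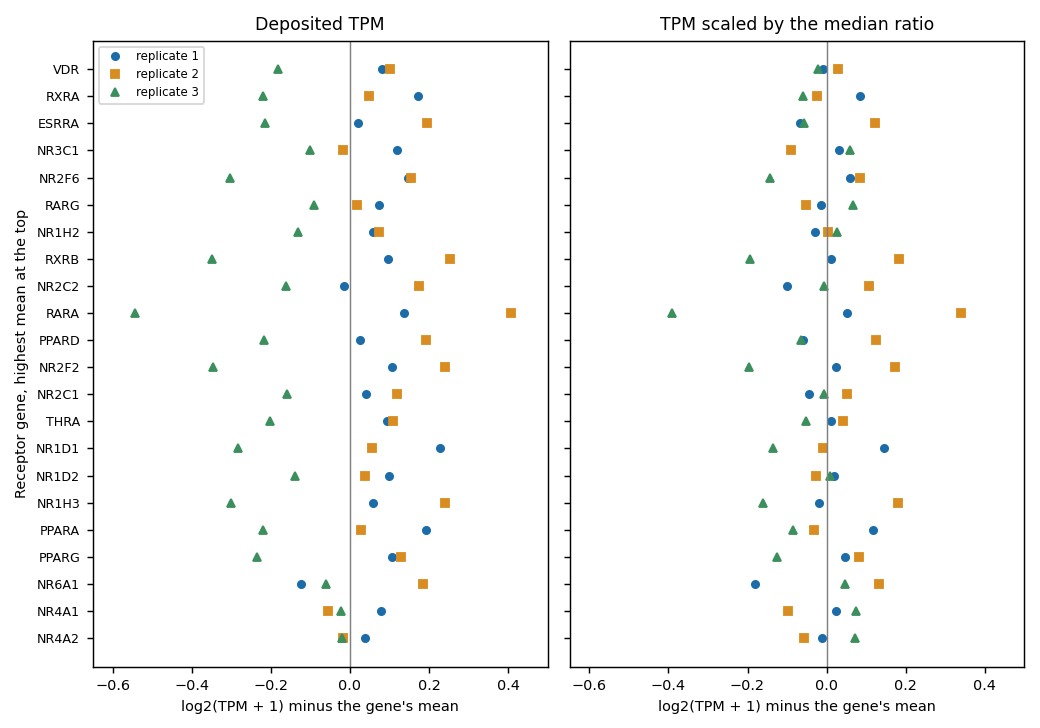
Deviation of each replicate from the gene's mean of log2(TPM + 1) for the 22 receptors at or above 1 TPM, with the highest mean at the top, as deposited (left) and after scaling by the median ratio (right). Replicate 3 (triangles) is the lowest for 20 receptors on the left and for 12 on the right. Over protein-coding genes at or above 1 TPM, it is the lowest for 78.5% as deposited and 35.0% after scaling. RARA has the widest spread in both panels.

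Promoter windows were found in RefSeq for 41 of the 46 receptors, of which 19 were at or above 1 TPM. CpG counts overlapped widely between receptors above and below the cutoff. The median was 23 CpG per window for the 19 (from 2 for NR1H3 to 65 for RXRA) and 13 for the 22 below 1 TPM (from 0 for NR5A2 to 38 for NR4A3). Over protein-coding genes, the medians were 27 for 9345 genes at or above 1 TPM and 9 for 6000 genes below it. At least 15 CpG were present in 14 of 19 windows above the cutoff (73.7%, against 84.5% of protein-coding genes above it) and in 10 of 22 below it (45.5%, against 38.03%). Receptors with 0 reads thus had windows of both kinds, from 2 CpG for NR1H4 to 28 for RXRG and NR0B1. The hexamer AGGTCA, on either strand, was in 7 of 41 receptor windows (RARA, NR1H3, PPARG, NR5A2, NR0B1, NR1H4 and RXRG), against 11.5% of 15345 protein-coding promoters. The E-box CACGTG, the site of the clock factors, was in 4 of 41 (NR2F2, NR2C1, PGR and NR5A1), against 8.89%. Matches describe the letters of the reference and not binding.

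**Figure D5:**
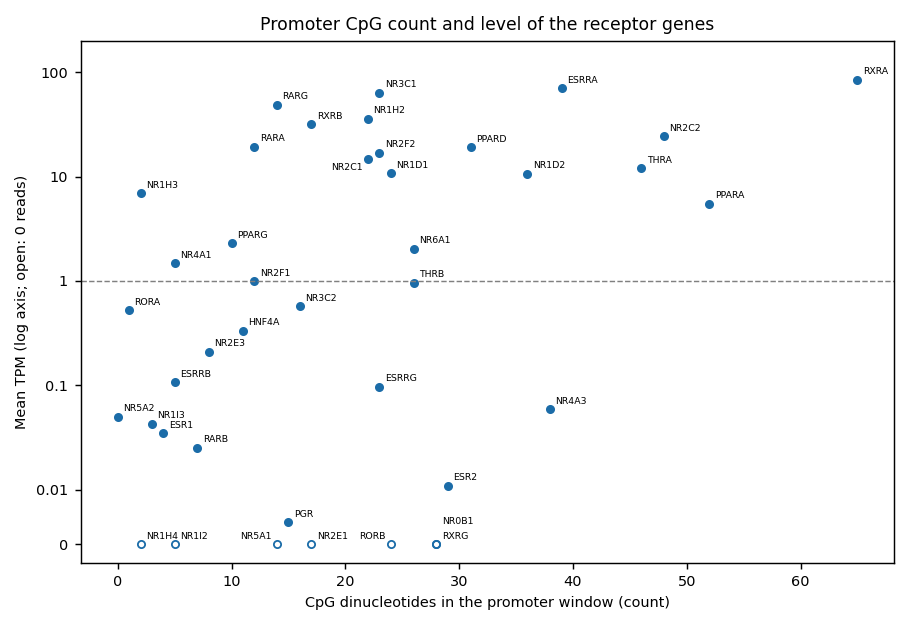
Mean TPM (log axis, open symbols for 0 reads) against the number of CpG dinucleotides in the RefSeq promoter window for 41 receptor genes, with a dashed line at 1 TPM. RXRA combines 65 CpG with 84.6 TPM, while RXRG and NR0B1, with 28 CpG each, have 0 reads.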

How the data were processed

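RNA-seq was measured in 3 replicates of 1 condition. Libraries were made from 300 ng of total RNA after depletion of ribosomal RNA. Per the paper's methods, the authors ran Seq2science with the hg38 genome for mapping and counting, and the submitters' processing notes name fastp, STAR and MultiQC. The annotation release, strand use and filters are not given in the sources used here. The authors deposited 1 table of TPM for 62754 genes, with each replicate summing to 1000000 and replicates not pooled. Columns were matched to samples by library name. Some listed genes are counted but not reported here by name.

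Of these genes, 62700 were found by Ensembl identifier in GENCODE release 44. Reads were recovered as TPM times the length of the longest transcript, less 1 base per exon, divided by the smallest value above 0, which gave whole numbers within 0.001 reads for 100% of values. That the smallest step is 1 read is an assumption. Limits for 0 reads are 3 reads per replicate. Sharing of exon bases was computed with bedtools 2.31.1 on canonical transcripts.

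The receptors and lists were chosen with earlier results of these data known. Named were every receptor and, from each of 14 pathway lists, the highest gene, genes with replicates on both sides of 1 TPM and genes with 0 reads, plus receptor partners, ligand enzymes and targets. Spread was measured by the SD on the log2(TPM + 1) scale. P-values of the chi-square test measure only whether these libraries differ past counting error, and such differences may be technical. The chi-square test was tested on simulated data. Alternatives covered the cutoff, summary, pseudocount, filters, scaling, transcript length and leaving out each replicate. Tests used scipy 1.17.1 and pandas 2.3.3 in Python 3.11.15, with numpy 2.4.6, and plots used matplotlib 3.10.9.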

Additional observations from a re-analysis of the deposited data

How the results depend on the processing

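No paired analysis was possible because there is only 1 condition. Under all alternatives the 22 receptors above the cutoff of 1 TPM became between 20 (cutoff of 2 TPM) and 26 (cutoff of 0.5 TPM), and between 22 and 24 when 1 replicate was left out. The 83 listed genes lay between 75 and 88, with 82 to 83 when 1 replicate was left out.

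The 2 receptors called differently between replicates became 4 at a cutoff of 0.5 TPM, 1 with protein-coding genes summing to 1000000, 1 with canonical lengths (chosen after seeing the data) and from 0 (without replicate 1) to 2 when 1 replicate was left out. The median spread of 0.19 was 0.10 without a filter on low values, 0.11 with protein-coding genes summing to 1000000, 0.10 after scaling by the median ratio, and from 0.093 (without replicate 3) to 0.21 when 1 replicate was left out. The 15 receptors that differed between libraries were 8 after scaling, and from 5 (without replicate 3) to 14 when 1 replicate was left out. No share over all genes is given for the tests with 1 replicate left out. With canonical lengths the share of PPARD was 62.9% in place of 71.0% and that of NR4A1 68.5% in place of 52.8%. With canonical lengths, the one alternative that could move a share by 1 SD, the leading shares of the other 9 subfamilies moved by less. The cause of these changes was not tested, except that the length changes PPARG and NR4A1 by construction. Of the 24 receptors named with values near or above the cutoff, 19 moved by more than 1 SD with canonical lengths, 14 with protein-coding genes summing to 1000000 and 2 without mitochondrially encoded genes, settings that rescale every gene of a replicate. Depth limits the 18 receptors with fewer than 15 reads in all, which were not tested between libraries.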
